A study of Homo sapiens with 24 samples.

Results

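Integrins are cell-surface receptors built from 1 alpha and 1 beta subunit, and they join the matrix outside the cell to the actin skeleton inside it. The pairing sets the ligand: ITGA5 with ITGB1 binds fibronectin, ITGA2 with ITGB1 binds collagen, ITGA3 or ITGA6 with ITGB1 and ITGA6 with ITGB4 bind laminin, and ITGAV with ITGB3 or ITGB5 binds vitronectin. ITGAV with ITGB8 is known for binding latent TGF-beta, a growth factor held inactive until it is released. The genes described here are 10 of the 26 human integrin subunits and of the 25343 genes listed: the alpha subunits ITGAV, ITGA2, ITGA3, ITGA5 and ITGA6 and the beta subunits ITGB1, ITGB3, ITGB4, ITGB5 and ITGB8. They were selected on measured values of these libraries: the set was proposed with earlier results of these libraries in view, and ITGB8 was chosen by its opposite values in the knockouts. Rows were found by matching the numeric Entrez identifier of each row to these symbols, and all 10 were present.

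RNA was sequenced in A375, a melanoma line, and HCT116, a colon cancer line. In each line the groups were a PTDSS2 knockout clone with 0.1 µM DS07551382, the clone with DMSO vehicle, the parent line with 0.1 µM DS07551382 and the parent with DMSO, each for 24 h and in 3 libraries, 24 libraries in all. Phosphatidylserine is made by the enzymes PTDSS1 and PTDSS2, and the series concerns a PTDSS1 inhibitor, DS07551382, in cells without PTDSS2. Each line is represented by 1 knockout clone, so a difference between a clone and its parent cannot be told apart from other differences between those cell populations. Whether the 3 libraries of a group came from separate cultures is not stated, and the p-values therefore cover library-to-library spread that may be technical. Library totals ran from 6.21 to 11.69 in units of 1e6 counts, with a median of 9.20. PTDSS2 stood at 0.723 to 1.91 CPM (counts per 1e6) in the 6 A375 knockout libraries, against 21.4 to 24.6 CPM in the A375 parent libraries. It stood at 4.87 to 7.91 CPM in the 6 HCT116 knockout libraries, against 33.1 to 39.4 CPM in the HCT116 parent libraries. Of the melanocyte markers, SOX10, S100B, ERBB3 and MITF were present in A375 parent cells (13.6 to 288 TPM), whereas the pigment genes PMEL, MLANA, TYR, DCT and TYRP1 were all under 1 TPM, a unit scaled per transcript length. Of the colon markers, EPCAM, KRT8, KRT18, KRT19, CDH1, CDX2 and ELF3 were present in HCT116 parent cells (15.04 to 2352 TPM), whereas KRT20, VIL1, CDX1, LGALS4 and CEACAM5 were under 1 TPM.

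Because ITGB8 was chosen in that way, its values in comparisons that include knockout libraries are a description with no test. In A375 it stood at 244.5, 242 and 249 CPM in knockout cells with inhibitor, against 113, 102 and 110 CPM in knockout cells with vehicle. In HCT116 it stood at 2.52, 2.13 and 3.49 CPM in knockout cells with inhibitor, against 12.8, 10.7 and 11.5 CPM in knockout cells with vehicle. The groups did not overlap in either line, and the inhibitor libraries were the high ones in A375 and the low ones in HCT116. The inhibitor-over-vehicle log2 fold change in the knockouts was 1.17 ± 0.04 in A375 (2.26-fold) and -2.11 ± 0.28 in HCT116 (0.232-fold), each from the fit of its own line. In a separate fit of all 24 libraries the difference between the lines was 3.29 ± 0.23 (SE, n = 3 libraries per group). That fit estimates the spread over both lines together, so its SE is not built from those of the separate fits and can be smaller. The HCT116 value rested on 20, 14 and 22 expected counts in the inhibitor libraries, so its counting error is large beside that of A375, where each inhibitor library held at least 2301.

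The parent lines give the same contrast with PTDSS2 present, and there ITGB8 was tested. In A375 parents it stood at 95.2, 96.5 and 99.98 CPM with inhibitor and 99.9, 103 and 96.7 CPM with vehicle, a log2 fold change of -0.03 ± 0.05 (edgeR adjusted p = 0.9316). In HCT116 parents it stood at 17.3, 11.1 and 15.3 CPM with inhibitor and 18.2, 13.7 and 21.6 CPM with vehicle, a log2 fold change of -0.29 ± 0.16 (edgeR adjusted p = 0.9993). The inhibitor and vehicle libraries overlapped in both parents. With the vehicle libraries alone, the clone-over-parent log2 difference of ITGB8 was 0.12 ± 0.05 in A375 and -0.61 ± 0.16 in HCT116, both given without a test. The inhibitor log2 fold change of the knockout less that of its parent was 1.21 ± 0.06 in A375 and -1.82 ± 0.34 in HCT116, also without a test.

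**Figure D1:**
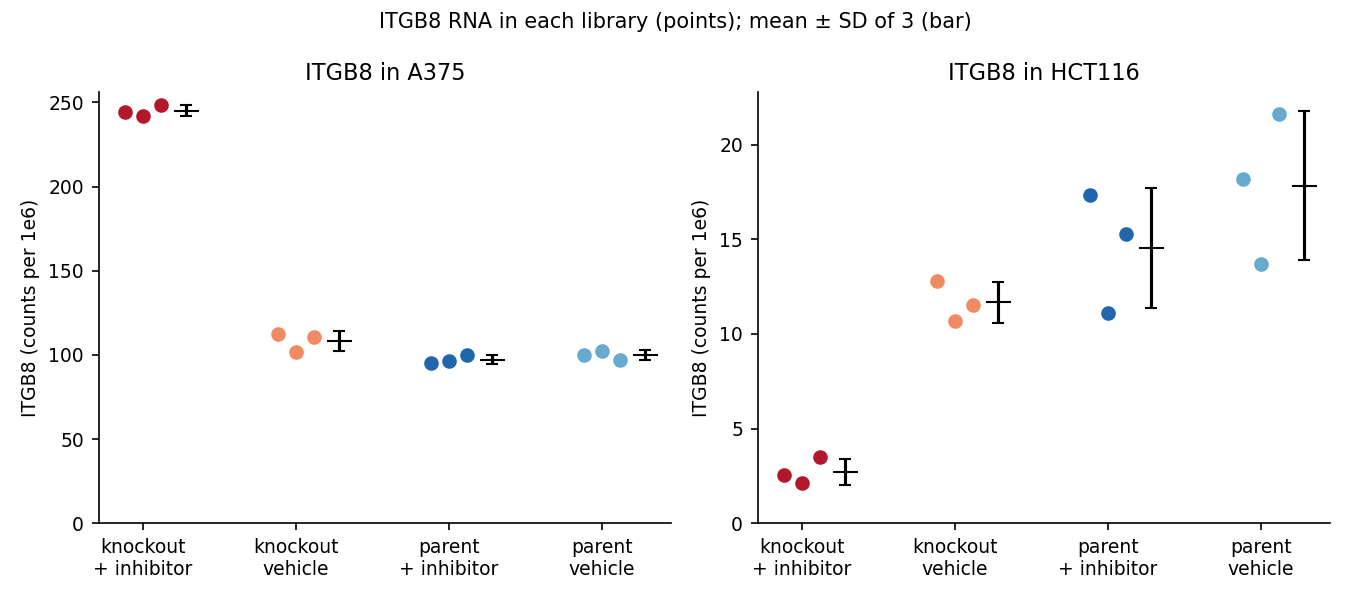
ITGB8 RNA in each library, in counts per 1e6, for the 4 groups of A375 (left) and of HCT116 (right); points are libraries and the bar beside them is the mean ± SD of 3. The vertical axes differ: the A375 knockout with inhibitor sits above 240 while its 3 other groups lie between 95.2 and 113, and the HCT116 knockout with inhibitor lies between 2.13 and 3.49, under every other HCT116 library.

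The DNA just upstream of the start site is shown for ITGB8, which differed in direction between the lines, and for ITGA5, which is described below as higher with inhibitor in both knockouts. The sequences are the 250 bases before the annotated start, from RefSeq on GRCh38.p14, written 5′ to 3′ on the strand of the gene. Capitals mark matches, on either strand, to the SP1 box GGGCGG and the TEAD motif GGAATG.
ITGB8 (chr7:20330650-20330899, plus strand): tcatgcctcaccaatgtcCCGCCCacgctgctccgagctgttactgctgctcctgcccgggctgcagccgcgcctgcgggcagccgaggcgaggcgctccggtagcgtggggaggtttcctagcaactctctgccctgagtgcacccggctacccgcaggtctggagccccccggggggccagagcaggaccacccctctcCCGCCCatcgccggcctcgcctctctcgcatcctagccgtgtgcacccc
ITGA5 (chr12:54419267-54419516, minus strand): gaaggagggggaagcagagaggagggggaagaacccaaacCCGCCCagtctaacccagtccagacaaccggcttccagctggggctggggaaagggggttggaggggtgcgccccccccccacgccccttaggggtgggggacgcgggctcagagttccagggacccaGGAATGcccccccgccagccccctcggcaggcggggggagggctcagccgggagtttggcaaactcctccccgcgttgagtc
The ITGB8 window held 2 matches to GGGCGG and 0 to GGAATG, to the AP-1 motif TGANTCA, to the cyclic AMP response element TGACGTCA or to the ATF4 composite motif TGATGNAA. The ITGA5 window held 1 match to GGGCGG, 1 to GGAATG and 0 to the other motifs. Over 35116 promoter windows of the same length, GGGCGG was present in 42.6%, GGAATG in 11.9%, TGANTCA in 6.57%, TGATGNAA in 3.14% and TGACGTCA in 1.65%. Of the 10 subunits, 7 had 1 or more windows, 12 in all, and no window of theirs held TGANTCA or TGACGTCA. The ATF4 composite motif occurred in 1 of these 12 windows, that of an ITGB5 start, and GGAATG in the ITGA5 window and 1 ITGB1 window. A match is a string of letters and not a measured binding site.

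The levels of the subunits within a cell were compared in TPM. In A375 parent cells with vehicle the order was ITGB1 at 254 ± 1.83, ITGA6 at 157 ± 6.26, ITGA3 at 134 ± 1.49, ITGB5 at 101 ± 5.72, ITGB3 at 93.2 ± 4.84, ITGA5 at 63.8 ± 2.23, ITGAV at 30.0 ± 1.85, ITGB8 at 23.1 ± 0.695, ITGA2 at 13.6 ± 0.730 and ITGB4 at 8.997 ± 0.458 TPM (SD, n = 3). Only ITGB5 and ITGB3 were neighbours whose libraries overlapped. In HCT116 parent cells with vehicle the order was ITGB1 at 338 ± 6.62, ITGA3 at 101 ± 0.921, ITGB4 at 93.3 ± 3.998, ITGA6 at 73.1 ± 2.08, ITGB5 at 61.2 ± 2.03, ITGAV at 28.8 ± 1.12, ITGA5 at 25.9 ± 1.42, ITGA2 at 15.5 ± 0.587, ITGB8 at 4.10 ± 0.947 and ITGB3 at 0.193 ± 0.224 TPM, with no neighbours that overlapped. ITGB1, the beta partner of most alpha subunits, was thus the highest subunit in both lines. In the A375 knockout with inhibitor ITGB8 stood at 56.4 ± 1.57 TPM and ITGAV, its only known alpha partner, at 41.4 ± 0.927 TPM. In the A375 knockout with vehicle ITGB8 stood at 24.4 ± 1.201 TPM, under ITGAV at 29.6 ± 1.84 TPM, so their order turned. In the HCT116 knockout with inhibitor ITGB8 stood at 0.613 ± 0.167 TPM beside ITGAV at 33.7 ± 1.35 TPM.

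ITGB3 passed the filter on low counts only through A375, so its difference between the lines is given without a test. The other 9 subunits all differed (6 higher and 3 lower in A375) between the parent lines in vehicle, in a fit of all 24 libraries in which edgeR called 81.8% of 14637 genes (42.3% higher and 39.5% lower in A375), so a call was the usual case among all genes. ITGB3, the vitronectin receptor subunit that pairs with ITGAV, stood at 93.0, 88.5 and 98.2 TPM in A375 and 0.04, 0.09 and 0.45 TPM in HCT116, on 5456 expected counts over the A375 libraries and 13 over the HCT116 libraries. ITGB4, the laminin-binding partner of ITGA6, was lower in A375, with 8.49, 9.12 and 9.38 TPM in A375 and 91.3, 90.7 and 97.9 TPM in HCT116, a log2 difference of -3.32 ± 0.06 (edgeR adjusted p = 1.604e-54). ITGB8 was higher in A375 by 2.55 ± 0.08 (edgeR adjusted p = 1.344e-27), with 23.3, 23.7 and 22.3 TPM in A375 and 4.16, 3.12 and 5.01 TPM in HCT116. ITGA5 was higher in A375 by 1.35 ± 0.05, ITGA6 by 1.15 ± 0.03, ITGB5 by 0.77 ± 0.04 and ITGA3 by 0.45 ± 0.04 on the log2 scale. ITGB1 was lower in A375 by a log2 difference of -0.35 ± 0.03. ITGAV (0.11 ± 0.05, edgeR adjusted p = 0.03393) and ITGA2 (-0.13 ± 0.06, edgeR adjusted p = 0.03395) differed little, and both calls were lost under DESeq2. The ITGAV call was also lost without A375 parent vehicle replicate 2 or HCT116 parent vehicle replicate 1 or 2. The ITGA2 call was also lost without A375 parent vehicle replicate 2 or 3 or HCT116 parent vehicle replicate 3.

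**Figure D2:**
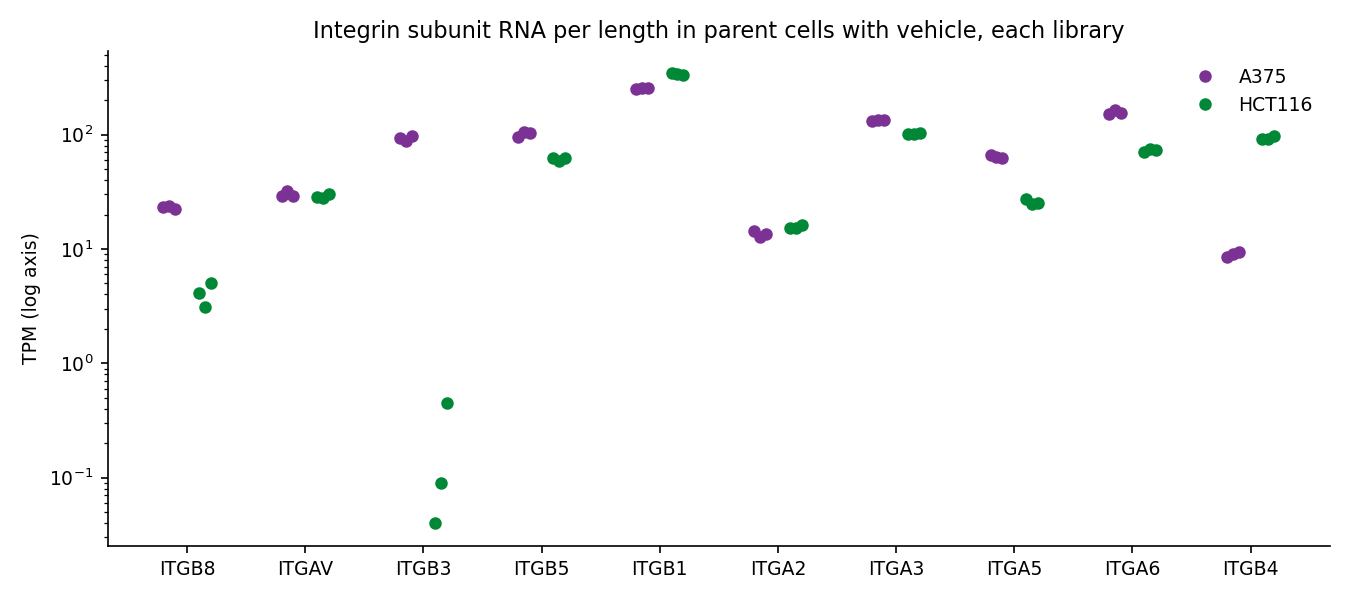
TPM of the 10 integrin subunits in parent cells with vehicle, on a log axis, with 3 libraries of A375 left of 3 of HCT116 for each gene. ITGB3 (88.5 to 98.2 TPM in A375, 0.04 to 0.45 TPM in HCT116), ITGB8 and ITGB4 lie furthest apart between the lines, and ITGAV and ITGA2 closest together.

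In the A375 knockout, inhibitor against vehicle, most subunits were higher. ITGB3 stood at 252, 255 and 269 CPM with inhibitor, against 156, 149 and 156 CPM with vehicle. ITGAV, the shared alpha subunit of the vitronectin and TGF-beta receptors, stood at 145, 148 and 138 CPM with inhibitor, against 110, 106 and 98.0 CPM with vehicle. For both genes every inhibitor library lay above every vehicle library. The log2 fold changes were 0.75 ± 0.04 for ITGB3 (edgeR adjusted p = 2.717e-20) and 0.45 ± 0.05 for ITGAV (edgeR adjusted p = 1.728e-10). ITGB5, the other vitronectin receptor beta subunit, was lower: 135, 129 and 134 CPM with inhibitor, against 154, 156 and 151 CPM with vehicle. Its log2 fold change was -0.21 ± 0.04 (edgeR adjusted p = 3.747e-05), and its libraries did not overlap.

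ITGA5, the fibronectin receptor alpha subunit, stood at 176, 179 and 181 CPM with inhibitor in the A375 knockout, against 131, 131 and 129 CPM with vehicle. ITGA2, the collagen receptor alpha subunit, stood at 67.8, 64.6 and 71.1 CPM with inhibitor, against 49.4, 47.3 and 48.1 CPM with vehicle. Neither overlapped, and the log2 fold changes were 0.46 ± 0.04 for ITGA5 and 0.49 ± 0.06 for ITGA2 (edgeR adjusted p = 1.66e-12 and 1.503e-09). The laminin receptor subunit ITGA6 rose by 0.18 ± 0.03 on the log2 scale (edgeR adjusted p = 1.609e-06), with 562, 544 and 551 CPM with inhibitor, against 495, 476 and 488 CPM with vehicle. ITGB1 rose by 0.08 ± 0.03 (edgeR adjusted p = 0.01289), a call lost without knockout vehicle replicate 2. ITGB4 stood at 18.2, 19.2 and 20.4 CPM with inhibitor and 15.4, 19.4 and 14.2 CPM with vehicle. These ITGB4 libraries overlapped, and its log2 fold change of 0.26 ± 0.10 (edgeR adjusted p = 0.03472) was not called by DESeq2 (adjusted p = 0.1089) or without vehicle replicate 1 or 3 or inhibitor replicate 3. ITGA3, at 0.01 ± 0.03, was not called (edgeR adjusted p = 0.9203).

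Of the 9 subunits other than ITGB8, all measured in A375, 7 rose and 1 fell in that comparison, where edgeR called 37.4% of 13455 genes (18.6% higher and 18.8% lower). Their median log2 fold change was 0.26, and that of all genes tested was 0.01. The 9 were chosen with earlier results of these data known, so the counts describe them and do not set them apart from other genes. In these bulk samples a change in RNA per cell cannot be told apart from a change in the mix of cells. The summed TPM of the 12 melanocyte markers ran from 915 to 937 in A375 parents with inhibitor and from 920 to 945 with vehicle. In parents with vehicle the highest of them were MIA at 357, SOX10 at 288 and ERBB3 at 126 TPM. The sum ran from 969 to 1039 in the A375 knockout with inhibitor and from 807 to 828 with vehicle. In both knockout groups 7 of the 12 were at 1 TPM or more. The part of that shift in the integrin values was not tested.

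In the HCT116 knockout, inhibitor against vehicle, ITGA5 had the highest log2 fold change of the subunits described here that passed the filter. It stood at 79.4, 80.6 and 75.6 CPM with inhibitor, against 56.7, 59.7 and 54.6 CPM with vehicle. The libraries did not overlap and the log2 fold change was 0.46 ± 0.06 (edgeR adjusted p = 1.367e-08). ITGA6 stood at 157, 160 and 155 CPM with inhibitor, against 191, 186 and 192 CPM with vehicle. It fell by 0.27 ± 0.04 on the log2 scale (edgeR adjusted p = 3.612e-07), and its libraries did not overlap. ITGB5 stood at 114, 114 and 103 CPM with inhibitor, against 120, 126 and 128 CPM with vehicle. Its log2 fold change was -0.17 ± 0.05 (edgeR adjusted p = 0.004819), a call lost without inhibitor replicate 3 (adjusted p = 0.06138). ITGB1 stood at 644, 667 and 653 CPM with inhibitor, against 594, 624 and 629 CPM with vehicle. Its log2 fold change of 0.09 ± 0.03 (edgeR adjusted p = 0.02326) was not called without vehicle replicate 1 or inhibitor replicate 2 or 3, nor with no filter on low counts.

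ITGAV (0.05 ± 0.05), ITGA3 (0.03 ± 0.04), ITGA2 (-0.04 ± 0.07) and ITGB4 (-0.08 ± 0.04) were not called in the HCT116 knockout. ITGB3 did not pass the filter in HCT116, where its libraries held 0 to 1.06 CPM. Of the 8 other subunits measured, ITGB8 apart, 2 rose and 2 fell, in a comparison where edgeR called 36.6% of 13164 genes (17.0% higher and 19.6% lower). Leaving out 1 library gave 2 to 4 called subunits, with 2 called without inhibitor replicate 3. Their median log2 fold change was -0.003, and that of all genes tested was 0.002. The summed TPM of the 12 colon markers ran from 4920 to 5017 in HCT116 parents with inhibitor and from 4883 to 4973 with vehicle. It ran from 4370 to 4457 in the HCT116 knockout with inhibitor and from 5016 to 5268 with vehicle. In both knockout groups 7 of the 12 were at 1 TPM or more. The part of that shift in the integrin values was not tested.

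**Figure D3:**
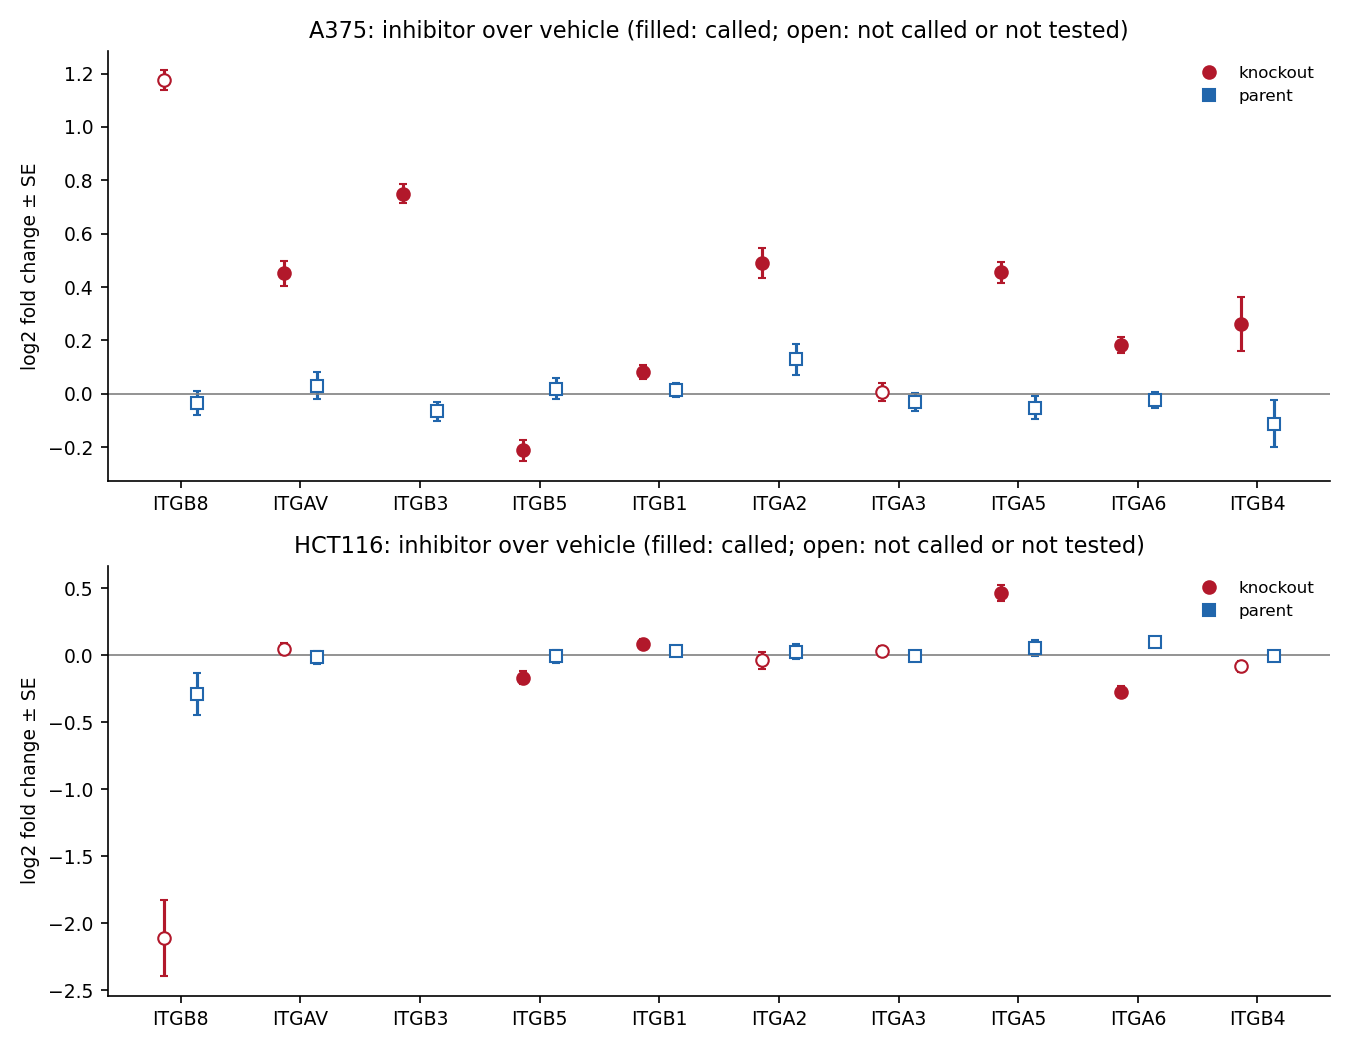
Inhibitor-over-vehicle log2 fold change ± SE of each subunit in the knockout clone (circles) and the parent (squares) of A375 (upper panel) and HCT116 (lower panel, on a wider axis), 3 libraries per group. ITGB3 is absent from the HCT116 panel because it did not pass the filter there. Filled symbols passed an edgeR adjusted p of 0.05 and open ones did not or were not tested; ITGB8 in the knockouts, at 1.17 and -2.11, is untested, and every parent symbol is open.

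**Figure D4:**
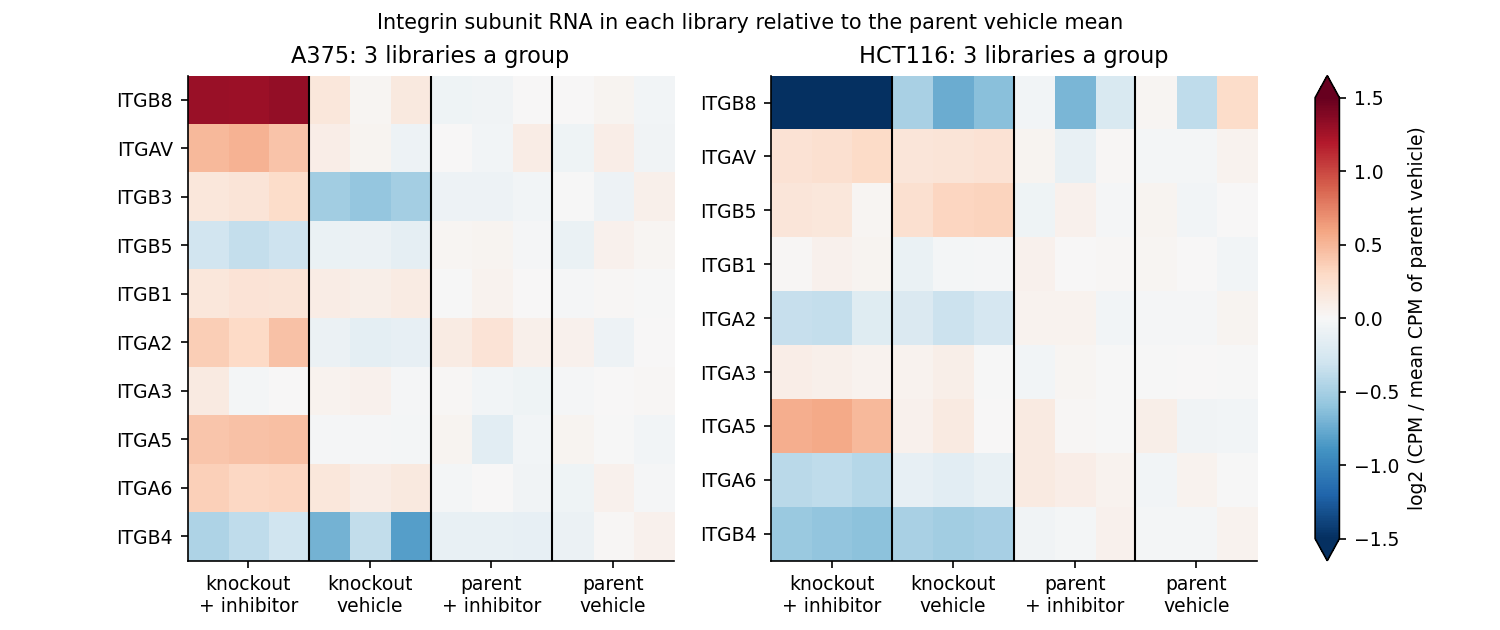
log2 ratio of CPM in each library to the mean CPM of the parent vehicle libraries of the same line, by subunit (rows) and library (columns, 3 per group). Colours run from -1.5 (blue) to 1.5 (red), and the ITGB8 values of the HCT116 knockout with inhibitor lie beyond the scale; ITGB3 is left out of HCT116 because it did not pass the filter there.

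The inhibitor effects of the knockouts were set against each other in a fit of both lines, which called 18.7% of 14637 genes (10.4% toward higher and 8.31% toward lower values in A375). Of the subunits other than ITGB8 and ITGB3, 4 differed, all toward higher values in A375. These were ITGA2 by 0.54 ± 0.09, ITGA6 by 0.46 ± 0.05, ITGAV by 0.41 ± 0.07 and ITGB4 by 0.35 ± 0.11 on the log2 scale (edgeR adjusted p = 1.301e-06, 2.945e-11, 1.995e-06 and 0.01177). ITGA6 was the tested subunit that passed the test in opposite directions in the knockouts. The ITGB4 difference was lost without A375 knockout vehicle replicate 1 or 3 or A375 knockout inhibitor replicate 3. For ITGA5 the difference between the lines was -0.00 ± 0.07, for ITGB1 -0.00 ± 0.04, for ITGB5 -0.04 ± 0.06 and for ITGA3 -0.02 ± 0.05, none called. ITGB3 gave 1.14 ± 0.73, without a test because it passed the filter only through A375. That estimate rests on 7 and 12 expected counts in the HCT116 knockout groups.

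In the parent lines the inhibitor called no subunit. In A375 parents 0 of 10 were called, where edgeR called 0.0892% of 13455 genes (12 genes). The log2 fold changes there ran from -0.11 ± 0.09 for ITGB4 to 0.13 ± 0.06 for ITGA2. In A375 parents 867 genes had an unadjusted p under 0.05, and ITGA2 was the 1 subunit of 10 among them (edgeR unadjusted p = 0.0327). In HCT116 parents 0 of 9 were called, where the share called by edgeR was 0% of 13164 genes. There 550 genes had an unadjusted p under 0.05, and DESeq2 called 1 gene. The log2 fold changes there ran from -0.29 ± 0.16 for ITGB8 to 0.10 ± 0.04 for ITGA6. ITGA6 was the 1 subunit of 9 with an unadjusted p under 0.05 in HCT116 parents.

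The difference between the knockout and the parent in their response was tested directly. In A375, where edgeR called 26.9% of 13455 genes (13.0% positive and 13.8% negative), 7 of the 9 subunits other than ITGB8 were called, 6 positive and 1 negative. The knockout-minus-parent log2 values were 0.82 ± 0.05 for ITGB3, 0.51 ± 0.06 for ITGA5, 0.42 ± 0.07 for ITGAV, 0.37 ± 0.13 for ITGB4, 0.36 ± 0.08 for ITGA2, 0.21 ± 0.04 for ITGA6 and -0.23 ± 0.06 for ITGB5. The ITGB4 value (edgeR adjusted p = 0.03281) was lost under DESeq2 and in 6 of the 12 fits that left out 1 library: knockout inhibitor replicate 3, knockout vehicle replicate 1 or 3, parent inhibitor replicate 3 and parent vehicle replicate 2 or 3. ITGB1, at 0.07 ± 0.04, and ITGA3, at 0.04 ± 0.05, were not called. In HCT116, where edgeR called 24.4% of 13164 genes (10.9% positive and 13.5% negative), 2 of 8 were called: ITGA5 at 0.41 ± 0.08 (edgeR adjusted p = 0.0002072) and ITGA6 at -0.37 ± 0.05 (edgeR adjusted p = 6.178e-07). ITGB5 in HCT116, at -0.16 ± 0.07, was not called (edgeR adjusted p = 0.07909), and passed without knockout vehicle replicate 1 or parent inhibitor replicate 1.

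The knockout clones differed from their parents in vehicle as well, and these values share the knockout vehicle libraries with the inhibitor comparisons. ITGB4 was lower in both clones. In A375 it stood at 15.4, 19.4 and 14.2 CPM in the knockout, against 23.6, 25.5 and 26.3 CPM in the parent, a log2 difference of -0.64 ± 0.10 (edgeR adjusted p = 4.593e-06). In HCT116 it stood at 188, 184 and 186 CPM in the knockout, against 258, 258 and 273 CPM in the parent, a log2 difference of -0.50 ± 0.04 (edgeR adjusted p = 2.959e-15). The libraries of clone and parent did not overlap in either line. The gene GALK1 overlaps ITGB4 on the opposite strand, with group means of up to 32.1 CPM in HCT116 and 17.8 CPM in A375. The strand setting of the counting is not given in the sources used here. GALK1 itself had a clone-over-parent log2 difference in vehicle of 0.05 ± 0.11 in A375 and -0.02 ± 0.07 in HCT116, neither called. The part of GALK1 reads in the ITGB4 values was not tested.

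ITGB3 in A375 stood at 156, 149 and 156 CPM in the knockout, against 221, 212 and 235 CPM in the parent, a log2 difference of -0.53 ± 0.04 (edgeR adjusted p = 3.176e-14). Its 252, 255 and 269 CPM in the knockout with inhibitor thus lay above the parent vehicle libraries too, with no overlap. The other A375 calls were rises of ITGA6 by 0.15 ± 0.03 and of ITGB1 by 0.11 ± 0.03 (edgeR adjusted p = 0.0004288 and 0.003255). In A375 4 of 9 subunits were called, where edgeR called 15.7% of 13455 genes (9.18% higher and 6.54% lower). In HCT116 5 of 8 were called, where edgeR called 21.3% of 13164 genes (10.5% higher and 10.8% lower). There ITGB5 rose by 0.30 ± 0.05 and ITGAV by 0.20 ± 0.05, and ITGA2 had -0.26 ± 0.06 and ITGA6 -0.13 ± 0.04, both called. The ITGA6 call in HCT116 (edgeR adjusted p = 0.006066) was lost without parent vehicle replicate 2. DESeq2 called fewer genes overall in these comparisons, 1371 in A375 and 1798 in HCT116, against 2115 and 2801 by edgeR.

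**Figure D5:**
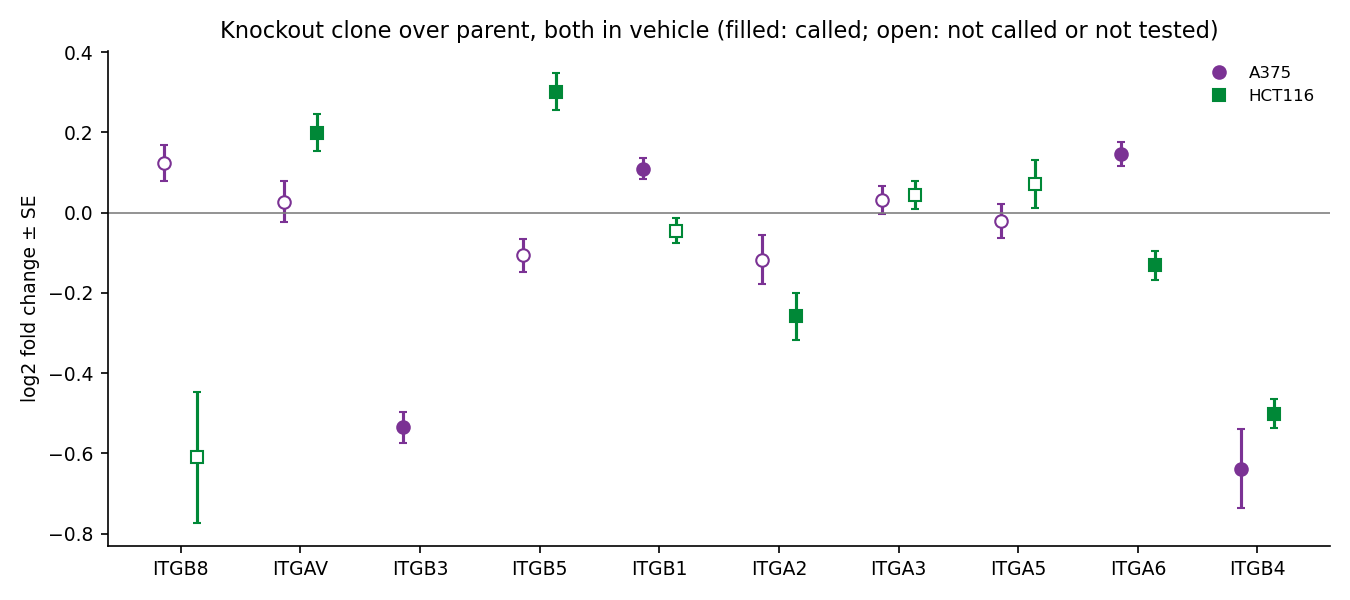
log2 fold change ± SE of each subunit in the knockout clone over its parent, both in vehicle, for A375 (circles) and HCT116 (squares), 3 libraries per group. ITGB3 has no HCT116 symbol because it did not pass the filter there. Filled symbols passed an edgeR adjusted p of 0.05 and open ones did not or, for ITGB8, were not tested; ITGB4 lies at -0.64 in A375 and -0.50 in HCT116.

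Of the other 16 integrin subunits, 8 passed the filter in A375 and 5 in HCT116. Of the 8 in A375, 1 rose and 2 fell in the knockout with inhibitor, near the 37.4% of all genes called there. In the A375 knockout, inhibitor against vehicle, ITGA1, a collagen receptor subunit, rose by 0.54 ± 0.06 (edgeR adjusted p = 3.276e-09), with 67.05, 59.7 and 72.3 CPM with inhibitor, against 43.9, 46.3 and 47.3 CPM with vehicle. ITGA4, which binds fibronectin and VCAM1 with ITGB1, had a log2 fold change of -0.32 ± 0.05 (edgeR adjusted p = 1.305e-06). ITGB2, a leukocyte subunit, had -1.27 ± 0.28 (edgeR adjusted p = 0.0003159) at a low level, with 1.28, 1.36 and 1.11 CPM with inhibitor, against 2.97, 2.74 and 3.31 CPM with vehicle. The antisense gene ITGB2-AS1 overlaps it and moved alongside by -2.71 ± 0.44, and the reads of ITGB2 and ITGB2-AS1 cannot be told apart without strand. PELO overlaps ITGA1 on the same strand and also rose in this comparison, by 0.19 ± 0.05 (edgeR adjusted p = 0.002137), at 74.8 ± 2.56 CPM with inhibitor and 65.3 ± 2.64 CPM with vehicle. In the A375 clone against its parent in vehicle ITGA10, a collagen receptor subunit, rose by 0.65 ± 0.14 and ITGA9 fell by 0.68 ± 0.16 (edgeR adjusted p = 0.001067 and 0.002046). These were the 2 of 8 called there, where edgeR called 15.7% of all genes. In the HCT116 knockout, inhibitor against vehicle, edgeR called none of the 5 and 36.6% of all genes. ITGA2B was the 1 with an unadjusted p under 0.05 (log2 fold change 0.55 ± 0.26). ITGA2B, the platelet partner of ITGB3, was also the 1 of 5 called in HCT116 for the knockout-minus-parent response, where edgeR called 24.4% of all genes. There it had 1.11 ± 0.40 (edgeR adjusted p = 0.03564), with neither the knockout nor the parent change called on its own. It averaged 3.68 ± 0.665 CPM in the knockout with inhibitor, against 2.49 ± 0.570 CPM with vehicle, and 1.58 ± 0.0679 CPM in the parent with inhibitor, against 2.33 ± 0.485 CPM with vehicle (parent log2 fold change -0.55 ± 0.30). The antisense partner of ITGB8, ITGB8-AS1, averaged at most 1.02 CPM in any group.

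Ligands and adaptors of integrins were counted from lists drawn up with earlier results of these data known. Of 28 matrix ligands, 24 were tested in the A375 knockout, where 8 rose and 6 fell, and 19 in the HCT116 knockout, where 4 rose and 3 fell. Over all genes the share called was 37.4% in the A375 knockout and 36.6% in the HCT116 knockout, so the ligands called in HCT116 were about as many as that share gives. THBS1, the thrombospondin ligand of ITGAV dimers, fell by 1.27 ± 0.02 in A375 and by 1.80 ± 0.11 in HCT116 on the log2 scale (edgeR adjusted p = 4.617e-35 and 2.046e-17). CCN1, a matricellular ligand of ITGAV dimers, fell by 2.07 ± 0.06 in A375 and by 1.37 ± 0.11 in HCT116. CCN2, its relative, fell by 1.67 ± 0.06 in A375 and by 1.22 ± 0.24 in HCT116. These falls are against knockout vehicle libraries, where the 3 ligands were called higher than in the parent vehicle libraries of both lines. That clone-over-parent log2 difference for THBS1, CCN1 and CCN2 was 0.34 ± 0.02, 0.51 ± 0.05 and 0.44 ± 0.05 in A375. In HCT116 it was 0.79 ± 0.09, 0.50 ± 0.09 and 0.63 ± 0.19. In A375 parents THBS1 rose with inhibitor by 0.13 ± 0.02 (edgeR adjusted p = 0.002525). LAMB1, a laminin chain, rose by 0.50 ± 0.07 in HCT116 and had 0.06 ± 0.03 in A375, not called there.

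Of 30 adhesion adaptors, 29 were tested in each line. In the A375 knockout 3 rose and 12 fell, with a median of -0.05, and in the HCT116 knockout 6 rose and 7 fell, with a median of 0.02. The shares over all genes were 18.6% higher and 18.8% lower in A375, and 17.0% higher and 19.6% lower in HCT116. PXN, the focal adhesion scaffold paxillin, fell by 0.22 ± 0.03 in A375 and by 0.43 ± 0.04 in HCT116. ACTN4, an actin crosslinker, fell by 0.17 ± 0.02 in A375 and by 0.31 ± 0.03 in HCT116. KANK1, which binds talin, rose by 0.59 ± 0.04 in A375 and fell by 0.34 ± 0.09 in HCT116, and BCAR1, a focal adhesion scaffold, fell by 0.42 ± 0.05 in A375 and rose by 0.44 ± 0.07 in HCT116. ACTN1 fell by 0.42 ± 0.03 in A375 and rose by 0.10 ± 0.04 in HCT116. KANK2 fell by 0.36 ± 0.04 in A375 and had 0.06 ± 0.06 in HCT116, not called there.

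Of 12 genes that make, store, process or receive TGF-beta, the growth factor that the ITGAV dimer with ITGB8 acts on, 11 were tested in the A375 knockout, where 3 rose and 2 fell. In the HCT116 knockout 10 were tested, and 3 rose and 1 fell. These counts lie near the 37.4% of all genes called in A375 and the 36.6% in HCT116. LTBP4, which tethers latent TGF-beta to the matrix, rose by 0.41 ± 0.06 in A375 and by 0.86 ± 0.05 in HCT116. Its relative LTBP3 rose by 0.52 ± 0.04 in HCT116 and had 0.03 ± 0.04 in A375, not called there. The receptor TGFBR1 rose by 0.23 ± 0.06 in A375 and by 0.27 ± 0.06 in HCT116. TGFB2, a TGF-beta isoform, fell by 1.82 ± 0.25 in A375 and had -0.67 ± 0.34 in HCT116, not called (edgeR adjusted p = 0.1201). The TGFB2 difference between the knockouts, A375 minus HCT116, was -1.15 ± 0.46 and was not called either (edgeR adjusted p = 0.07229). FURIN, the protease that cleaves the TGF-beta precursor, rose by 0.28 ± 0.04 in A375 and had -0.01 ± 0.07 in HCT116, not called there.

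The genes whose pattern was most like that of ITGB8 were ranked by Pearson r of log2 CPM over the 24 libraries, after the mean of each line was subtracted, among 9779 genes with a mean of at least 5 CPM in each line. They were KLHL21 (r = 0.956), NFE2L3 (0.943), KIAA0930 (0.935), ATOX1 (0.934) and DAB2 (0.928). These r values are a description, because the libraries share lines, clones and treatments. In the knockouts, inhibitor over vehicle, the log2 values were 0.25 ± 0.03 in A375 and -0.49 ± 0.05 in HCT116 for KLHL21, and 0.41 ± 0.06 in A375 and -0.62 ± 0.16 in HCT116 for DAB2. All 5 were higher with inhibitor in the A375 knockout and lower in the HCT116 knockout, as the ranking chose them to be, so no test is given. With log2 TPM in place of log2 CPM, 3 of these 5 stayed among the first 5.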

How the data were processed

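Per the labels' protocols, an NEBNext Ultra RNA kit was used on RNA captured by its poly(A) tail. The submitters' processing notes name STAR 2.4.2a, RSEM 1.2.23 and the build hg19, with no strand setting. Per the file headers, the expected counts that the authors deposited come from RSEM, which can split a read between genes and so give fractions. The authors deposited TPM too, scaled for transcript length and library size, and it served to compare levels between genes and lines. The deposited FPKM values were not used. Rows carry Entrez identifiers, and 25220 of 25343 matched a symbol in a RefSeq table of GRCh38.p14, used for names and promoter sequences only. In no library did the 123 unmatched rows exceed 0.0724% of the counts.

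Expected counts were rounded, and genes were kept by edgeR's filter (minimum count 10, minimum total 15). Libraries were scaled by TMM within each line for the fits of 1 line and for the CPM printed. For comparisons between lines and the ranking of genes like ITGB8, TMM scaled all 24 libraries together. The 12 libraries of a line entered 1 fit with 4 group means, and comparisons between lines used all 24. The test was edgeR 4.0.16's quasi-likelihood F test (robust, R 4.3.3), two-sided, with Benjamini-Hochberg adjustment over all genes tested, and an adjusted p under 0.05 was called. Each log2 fold change has a standard error of its size over the square root of F. The steps were tested on simulated data. The simulated counts were drawn from edgeR's own fitted spread, so the run cannot show how the steps behave on data that depart from it. Alternatives changed the test (DESeq2 1.42.0, limma-voom with limma 3.58.1), the scaling (DESeq2 size factors, total counts), the filter (none, or a mean of 5 CPM), the libraries fitted (6, 24, or 1 left out) or added a replicate block.

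The subunits, the gene lists and the tests were chosen with earlier results of these data known. The genes named were the 10 subunits, other integrin subunits past the filter, per list and knockout the 3 members that ranked first by adjusted p, and the 5 genes most like ITGB8. ITGA2B's level was added after its values were seen.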

Additional observations from a re-analysis of the deposited data

Results flagged for a closer look

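The values below stand out because the inhibitor effect differed between 2 settings, by a test of the difference itself except for ITGB8. In A375 the log2 fold change of the knockout less that of its parent was 0.82 for ITGB3, 0.51 for ITGA5, 0.42 for ITGAV, 0.37 for ITGB4, 0.36 for ITGA2, 0.21 for ITGA6 and -0.23 for ITGB5. In HCT116 it was 0.41 for ITGA5 and -0.37 for ITGA6. Between the knockouts, A375 minus HCT116, the difference was 0.54 for ITGA2, 0.46 for ITGA6, 0.41 for ITGAV and 0.35 for ITGB4. Both ITGB4 calls were lost in some fits that left out 1 library, and the knockout-minus-parent call also under DESeq2 (adjusted p = 0.1097). For ITGB8 every inhibitor library was above every vehicle library in the A375 knockout and below every one in the HCT116 knockout, a difference of 3.29 that was not tested because the gene was chosen for it.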

How the results depend on the processing

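Over the subunits and comparisons, 1555 alternative values were computed. Of these, 32 lost a call and 8 gained one. No called value turned direction, while 41 values that were not called changed sign. Of the untested ITGB8 values 1 moved by more than the spread between libraries: the ITGB8 difference between the knockouts was 3.49 without HCT116 knockout inhibitor replicate 3. In the HCT116 parent, DESeq2 and the fit of only the 6 libraries each called 1 gene, and leaving out 1 library gave 0 to 2, against 0. DESeq2 called 1798 genes between the HCT116 clone and its parent, against 2801, and 1371 between the A375 clone and its parent, against 2115. In the HCT116 knockout, leaving out 1 library gave 2 to 4 called subunits, against 4. ITGB5 in the A375 clone against its parent, not called in the report, was called under DESeq2 size factors, library size alone, the 5 CPM filter, only the 6 libraries, and without parent vehicle replicate 1. ITGB1 in that comparison lost its call, and its knockout-minus-parent value in A375 gained one, with library size alone. ITGAV between the parent lines lost its call with library size alone or no filter. The cause was not tested. Whether replicate numbers pair the samples cannot be told from these data. Correlations of the deviations of same-numbered libraries ran from -0.025 to 0.122, and not every library matched its own number best. In the HCT116 clone against its parent in vehicle all 3 did, with r = 0.052, 0.065 and 0.055. With the replicate block edgeR called 5051 genes in the A375 knockout and 4911 in the HCT116 knockout, against 5033 and 4815, with the same number of subunits, 8 and 4. Depth limits ITGB8 in HCT116, with 56 expected counts over the 3 knockout inhibitor libraries, and ITGB3 there, with 7.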
